A study of Mus musculus with 2 samples.

Results

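The 10 genes described here mark the macrophages of the liver and were chosen by name. Of them, 5 mark resident Kupffer cells (Clec4f, Vsig4, Timd4, Cd5l and Marco) and 5 mark macrophages in general or recruited and activated ones (Adgre1, Cd68, Trem2, Itgax and Csf1r). All 10 were found among the 55421 genes of the count tables, and all 10 passed the level filter of 50 counts in the mean over both libraries. Kupffer cells live in the liver sinusoids, where they clear particles, bacteria, aged red cells and cell debris from portal blood. Most of them arise before birth and renew themselves in place, and they carry a set of surface proteins that other macrophages lack or carry weakly. When they are lost, or when the liver is inflamed, monocytes enter from the blood and become macrophages that share the general macrophage proteins but take up the resident markers late or in part.

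The counts came from bulk RNA of whole mouse liver in 2 libraries. The WT library was from Rcrin flox mice, in which loxP sites flank part of Rcrin and the gene is left in place. The Rcrin knockout library was from conditional knockout mice of that gene. Both carry a time label of 8 weeks. The sources used here do not give the Cre driver, the cells in which the gene was deleted, the strain, the sex or the number of mice behind a library. Depth was 65121596 counts (WT) and 63587567 (knockout). With 1 library per genotype there was no measure of the spread between mice, so no test was made, all differences given are between these 2 libraries, and each interval is a 95% interval for counting error only, exact unless stated. The labels name no molecular identifiers, and PCR copies counted as reads make the true counting error larger than these intervals. All 11 hepatocyte genes found had counts in both libraries, as the liver label requires, led by albumin (Alb) with 3350104 and 5599153 counts (WT and knockout).

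The general markers all stood lower in the knockout library, while the resident markers lay on both sides of equality. The median log2 ratio of knockout over WT was -1.17 for the 5 general markers and -0.23 for the 5 resident ones, a difference of 0.94 between the medians. At a limit of 2-fold (a log2 ratio of 1 in size), 3 general markers were lower, Trem2, Cd68 and Itgax, and 1 resident marker was higher, Vsig4. Over all 12064 genes compared, 8.61% were lower and 8.45% higher by as much, and the median log2 ratio was -0.01. Among the 10560 of these with at least 4 exons, the range in which all 10 markers lie, the shares were 7.35% and 7.23%. The 3 of 5 general markers past the limit are a larger share than this background, the 1 resident marker is too few to set against it, and neither count was tested. The background was not matched for counts. With only markers of at least 500 counts in the mean, 1 marker, Cd68, was lower by as much. The classes overlapped, because Adgre1 among the general markers stood above Cd5l and Marco among the resident ones. With a smooth trend over GC content removed, Adgre1 (-0.44) stood below Marco (-0.25) and still above Cd5l (-0.50). The difference between the medians was 0.47, and the general median -0.70, when only markers with a mean of at least 500 counts were used, which leaves out Trem2 and Itgax. In bulk tissue, fewer cells of a type and less RNA per cell cannot be told apart.

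**Figure D1:**
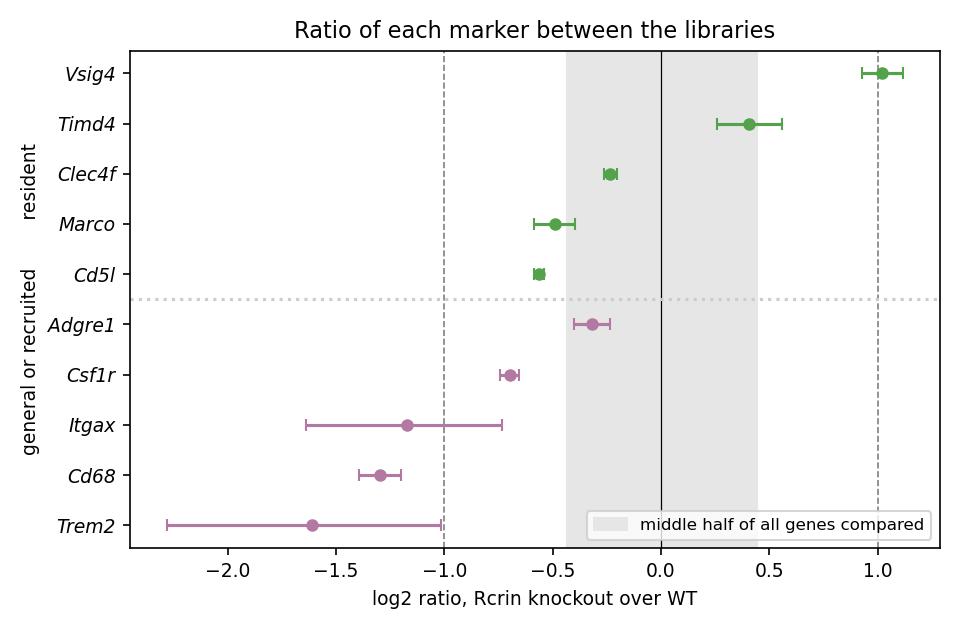
Log2 ratio of knockout over WT for each marker (points) with its exact 95% counting interval (bars), the resident class above the dotted line and the general class below it, the grey band showing the interquartile range of all genes compared and dashed lines the 2-fold limits. All 5 general markers lie left of 0, down to Trem2 at -1.61, and the resident markers run from Cd5l at -0.56 to Vsig4 at 1.02.

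The promoters of the markers at both ends of this order are shown because these genes lie at opposite ends although macrophages use all of them. Each run holds the 250 bases before the RefSeq start of the gene (GRCm38.p6), read 5′ to 3′ on the strand of the gene. The windows are chrX:96293439-96293688 (minus strand) for Vsig4, chr11:46810549-46810798 (plus) for Timd4, chr11:69666171-69666420 (minus) for Cd68 and chr17:48346151-48346400 (plus) for Trem2. Capitals mark matches to the letters searched for, described after the sequences.
Vsig4: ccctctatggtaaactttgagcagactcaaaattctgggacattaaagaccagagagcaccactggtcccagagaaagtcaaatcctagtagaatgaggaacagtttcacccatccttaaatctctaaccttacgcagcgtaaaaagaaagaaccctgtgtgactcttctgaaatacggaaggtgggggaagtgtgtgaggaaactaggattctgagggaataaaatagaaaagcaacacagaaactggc
Timd4: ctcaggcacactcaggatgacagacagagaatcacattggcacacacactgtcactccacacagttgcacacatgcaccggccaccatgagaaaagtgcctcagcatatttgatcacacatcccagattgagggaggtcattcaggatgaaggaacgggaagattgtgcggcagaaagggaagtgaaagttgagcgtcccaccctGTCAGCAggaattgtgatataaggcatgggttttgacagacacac
Cd68: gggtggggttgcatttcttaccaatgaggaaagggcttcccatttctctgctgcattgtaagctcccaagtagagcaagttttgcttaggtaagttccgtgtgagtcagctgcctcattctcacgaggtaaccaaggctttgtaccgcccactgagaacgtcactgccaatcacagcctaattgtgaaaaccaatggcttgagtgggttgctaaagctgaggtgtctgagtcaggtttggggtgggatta
Trem2: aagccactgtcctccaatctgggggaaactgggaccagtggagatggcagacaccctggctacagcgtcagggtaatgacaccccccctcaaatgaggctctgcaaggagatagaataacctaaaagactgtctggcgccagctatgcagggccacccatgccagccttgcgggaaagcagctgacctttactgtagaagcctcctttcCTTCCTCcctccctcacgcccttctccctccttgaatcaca
3 short motifs were searched on both strands, and they do not overlap each other in these windows. GAGGAAG is a core of sites for PU.1, the transcription factor that all macrophages depend on. It stood in 10.6% of 32851 RefSeq promoter windows of this length and in 3 of the 8 markers with a window, Trem2, Cd5l and Marco. In Trem2 it lay on the opposite strand, from 41 to 35 bases before the start. TGCTGAC, a core of sites for Maf proteins, stood in 3.81% of windows and in 1 of the 8, Timd4, on the opposite strand from 45 to 39 bases before the start. CACGTG, the E-box bound by lysosomal regulators among others, stood in 6.02% of windows and in 0 of the 8. The markers with the full PU.1 letters had log2 ratios of -1.61, -0.56 and -0.49. The windows of Vsig4 and Cd68, on opposite sides of the order, held none of the 3 motifs in full. Both do hold GAGGAA, the PU.1 letters without the last G, a shorter form that was not searched for. A match describes letters only and is not evidence of binding. Adgre1 and Csf1r had no entry among the promoters.

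Among the resident markers, Vsig4 was the one past 2-fold. It encodes CRIg, a complement receptor with which Kupffer cells catch C3-coated bacteria in the blood (ENSMUSG00000044206, GRCm38 chromosome X from 96247203 to 96293438, 7 exons). Its counts were 1392 (WT) and 2665 (knockout). In CPM (counts per 1000000 counts of the scaled library) these were 21.001 and 42.7, so Vsig4 was 2.03-fold higher in the knockout library (log2 ratio 1.02, interval 0.93 to 1.12). Of all genes compared, 92.0% had a log2 ratio at or below that of Vsig4. The interval reaches below 2-fold, and the log2 ratio was 0.97 when libraries were scaled by total count and 0.80 with a trend over GC content removed.

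Timd4 stood on the same side by less. It encodes TIM-4, a receptor for phosphatidylserine on dying cells, and in liver it marks Kupffer cells of embryonic origin, while macrophages newly made from monocytes lack it (ENSMUSG00000055546, chromosome 11 from 46810800 to 46844332, 9 exons). Counts of Timd4 were 654 (WT) and 818 (knockout), 9.87 and 13.1 CPM. The ratio was 1.33-fold higher in the knockout library (log2 ratio 0.41, interval 0.26 to 0.56), within the interquartile range of all genes compared, which ran from -0.44 to 0.44. With the GC trend removed it was 0.12.

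Clec4f, the marker most restricted to Kupffer cells in mice, differed least among the 10. It encodes a C-type lectin that binds galactose-bearing glycans (ENSMUSG00000014542, chromosome 6 from 83644542 to 83656187, 7 exons). Clec4f had 20979 (WT) and 16813 (knockout) counts, 317 and 269 CPM. This is 1.18-fold lower in the knockout (log2 ratio -0.23, interval -0.26 to -0.20), and 36.0% of all genes compared lay as low or lower. Its log2 ratio ran from -0.29 to -0.06 over 5 other ways of scaling and correcting the counts.

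Cd5l and Marco stood lower by more, and by nearly the same amount before any correction for GC content. Cd5l encodes AIM, a secreted scavenger receptor protein that keeps macrophages alive and travels in blood with IgM (ENSMUSG00000015854, chromosome 3 from 87357881 to 87371073, 6 exons). It had 39804 and 25381 counts, or 601 and 406 CPM, which is 1.48-fold lower (log2 ratio -0.56, interval -0.59 to -0.54). Marco encodes a scavenger receptor for bacteria and particles (ENSMUSG00000026390, chromosome 1 from 120474538 to 120505024, 17 exons). It had 2212 and 1483 counts, 33.4 and 23.7 CPM, 1.41-fold lower (log2 ratio -0.49, interval -0.59 to -0.40). The number of Cd5l counts per Marco count was 18.0 (WT) and 17.1 (knockout), a log2 change of -0.07 (interval -0.17 to 0.03, from the normal approximation for counts, as for the other ratios of 2 markers below), so these 2 could not be told apart on the counts as deposited. With the GC trend removed they separated, at -0.50 for Cd5l and -0.25 for Marco, a log2 change of -0.25 in their ratio (interval -0.35 to -0.15). Of all genes compared, 19.5% lay as low as Cd5l or lower and 22.3% as low as Marco.

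**Figure D2:**
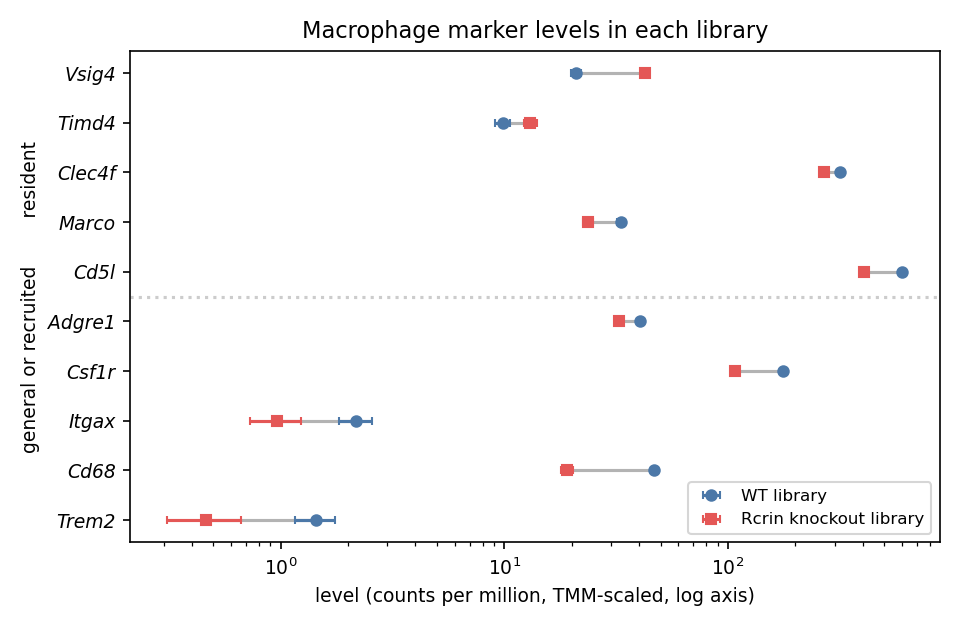
Level of each marker in CPM on a log axis, with circles for the WT library, squares for the knockout library and bars for the exact Poisson 95% interval, resident markers above the dotted line. Vsig4 and Timd4 are the 2 rows in which the knockout square lies to the right of the WT circle, and Trem2 and Itgax are the 2 rows near or below 1 CPM in the knockout library.

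Among the general markers, the broad receptors of the lineage were lower by less than 2-fold. Csf1r encodes the receptor for CSF1 and IL-34, on which the survival of macrophages depends (ENSMUSG00000024621, chromosome 18 from 61100598 to 61132149, 22 exons). Csf1r had 11630 (WT) and 6751 (knockout) counts, 175 and 108 CPM, 1.62-fold lower (log2 ratio -0.70, interval -0.74 to -0.66). Its exons share 873 bases with those of Hmgxb3 on the opposite strand, which had 1099 and 1414 counts, and the use of strand in counting was not given, so some of its reads are uncertain. Adgre1 encodes an adhesion receptor that is the classic surface antigen of mouse tissue macrophages and is strong on Kupffer cells (ENSMUSG00000004730, chromosome 17 from 57358691 to 57483527, 23 exons). It had 2691 and 2035 counts, 40.6 and 32.6 CPM, and at 1.25-fold lower (log2 ratio -0.32, interval -0.40 to -0.23) it was the general marker that differed least. On the counts as deposited it differed from Clec4f by little, the number of Clec4f counts per Adgre1 count being 7.80 (WT) and 8.26 (knockout), a log2 change of 0.08. With the GC trend removed Adgre1 stood at -0.44, that change was 0.38 (interval 0.29 to 0.47), and Adgre1 and Csf1r (-0.52) could not be told apart.

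Cd68 was the marker with many counts that stood farthest below WT. It encodes macrosialin, a heavily glycosylated protein of lysosomes and endosomes (ENSMUSG00000018774, chromosome 11 from 69664213 to 69666153, 6 exons). Counts of Cd68 were 3109 (WT) and 1193 (knockout), 46.9 and 19.1 CPM. This is 2.46-fold lower (log2 ratio -1.30, interval -1.39 to -1.20), and 5.82% of all genes compared lay as low or lower. The whole interval lay past 2-fold, and the log2 ratio was -1.12 with the GC trend removed.

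Trem2 and Itgax were lower by similar amounts on far fewer counts. Trem2 encodes a lipid-sensing receptor of macrophages that take up lipid and debris, in fatty liver among other settings (ENSMUSG00000023992, chromosome 17 from 48346401 to 48354147, 5 exons). Only 95 (WT) and 29 (knockout) counts of Trem2 were found, 1.43 and 0.464 CPM, 3.05-fold lower (log2 ratio -1.61, interval -2.28 to -1.01). Itgax encodes CD11c, an integrin chain carried by dendritic cells and by some recruited macrophages (ENSMUSG00000030789, chromosome 7 from 128129547 to 128150657, 30 exons). It had 144 and 60 counts, 2.17 and 0.960 CPM, 2.25-fold lower (log2 ratio -1.17, interval -1.64 to -0.73). The interval of Trem2 lies just past 2-fold and that of Itgax does not. The 3 lowest markers could not be ranked among themselves, since the changes in the ratios of Cd68 to Trem2 (log2 0.33, interval -0.28 to 0.94), Cd68 to Itgax (-0.12, -0.56 to 0.33) and Trem2 to Itgax (-0.45, -1.19 to 0.29) all had intervals that hold 0.

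The count of one marker divided by the count of another in the same library needs no scaling between libraries, though GC content still bears on it. Of the 25 ratios of a resident to a general marker, 23 were higher in the knockout library, 22 of them with an interval wholly above 0, and 2 were lower, both with an interval wholly below 0. These 25 values come from 10 genes and are not independent of each other. The lower ones were Cd5l to Adgre1 (log2 change -0.25, interval -0.33 to -0.16) and Marco to Adgre1 (-0.17, -0.30 to -0.05). Neither held with the GC trend removed, where Marco to Adgre1 turned to 0.19 (interval 0.06 to 0.32) and Cd5l to Adgre1 came to -0.06 (-0.14 to 0.03). Of the 25 ratios, 24 were then higher, 23 of them with an interval wholly above 0. Vsig4 gave the largest changes. There were 0.448 Vsig4 counts per Cd68 count (WT) and 2.23 (knockout), a 4.99-fold difference (log2 change 2.32, interval 2.18 to 2.45). Against Csf1r, the ratio of Vsig4 was 0.120 (WT) and 0.395 (knockout), 3.30-fold higher, that of Timd4 0.0562 and 0.121, 2.15-fold, and that of Clec4f 1.80 and 2.49, 1.38-fold. Cd5l and Marco kept closer to Csf1r, at 1.10-fold and 1.15-fold.

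**Figure D3:**
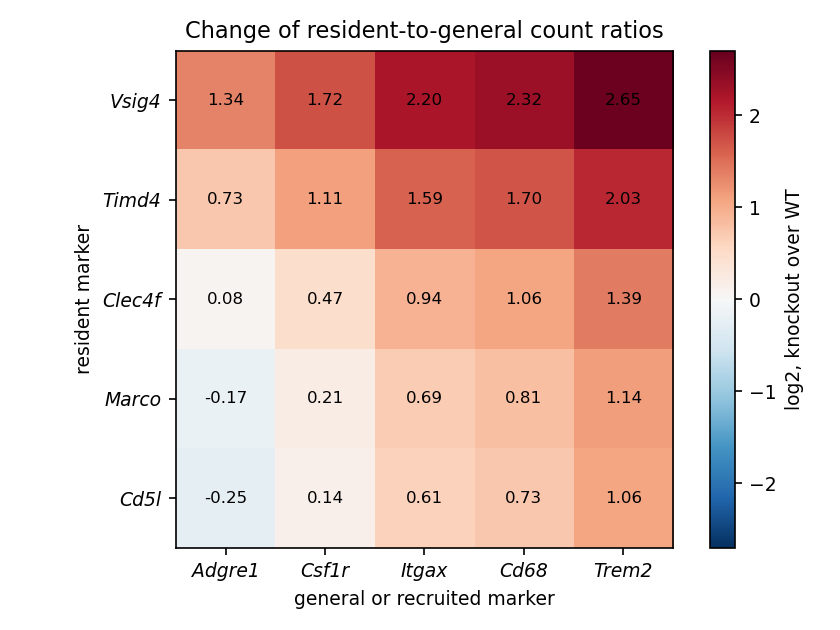
Log2 change, knockout over WT, in the within-library count ratio of each resident marker (rows) to each general marker (columns), red for higher and blue for lower in the knockout library. Vsig4 holds the largest value of every column, from 1.34 against Adgre1 to 2.65 against Trem2, and the only cells below 0 are Cd5l and Marco against Adgre1, of which the Marco cell turns to 0.19 with the GC trend removed (not drawn).

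Apart from the pair of Cd5l and Marco, on the counts as deposited, the resident markers also differed from one another by more than counting error. Vsig4 counts per Cd5l count were 0.0350 (WT) and 0.105 (knockout) (log2 change 1.59, interval 1.49 to 1.68), and Vsig4 counts per Clec4f count also stood higher, with 15.1 (WT) and 6.31 (knockout) Clec4f counts per Vsig4 count. Timd4 counts per Cd5l count were 0.0164 and 0.0322. Among the summed counts of the 5 resident markers, Vsig4 made up 2.14% in the WT library (exact binomial 95% interval 2.03 to 2.25) and 5.65% in the knockout library (5.44 to 5.86). Cd5l made up 61.2% and 53.8%, Clec4f 32.3% and 35.7%, Timd4 1.01% and 1.73% and Marco 3.40% and 3.14%. Cd5l and Clec4f therefore set the sum, which was 981 CPM (WT) and 755 (knockout), 1.30-fold lower (log2 ratio -0.38, interval -0.40 to -0.36). The general markers summed to 267 and 161 CPM, 1.65-fold lower (-0.73, -0.76 to -0.69), with Csf1r at 65.8% and 67.1% of that sum. The resident markers took 78.6% of the counts of all 10 (WT) and 82.4% (knockout).

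Levels can be compared between genes only per length, here as CPM per kilobase of the principal transcript. In the WT library the order was Cd5l (295), Clec4f (128), Cd68 (38.1), Csf1r (37.3), Marco (17.3), Vsig4 (14.7), Adgre1 (12.5), Timd4 (4.54), Trem2 (1.32) and Itgax (0.537). Neighbours in that order differed beyond counting error except Cd68 and Csf1r, whose intervals overlap. In the knockout library Cd5l (199.5) and Clec4f (109) again led. Vsig4 (29.8) came next, ahead of Csf1r (23.0), Cd68 (15.5), Marco (12.3), Adgre1 (10.1), Timd4 (6.03), Trem2 (0.427) and Itgax (0.237), and only the intervals of Trem2 and Itgax overlapped. Vsig4 thus stood at rank 6 of the 10 in the WT library and at rank 3 in the knockout library, and Cd68 at ranks 3 and 5. Per kilobase of all exons of the gene the orders were the same except that Trem2 stood below Itgax, because the exons of all Trem2 transcripts together cover 4946 bases and those of its principal transcript 1088.

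Other genes of Kupffer cells and macrophages were taken from lists written with earlier results of these data known. Of 25 further Kupffer cell genes compared, 5 stood lower past the 2-fold limit and 0 higher, with a median log2 ratio of -0.37, against -0.01 over all genes. Over all genes compared, 8.61% were lower and 8.45% higher past that limit. These shares are the background for each list count from here on, and no list count was tested. The complement gene C6 (-2.01) and the regulator Id3 (-1.45) were lowest, the platelet and myeloid receptor Clec1b (0.60) and the potassium channel Kcna2 (0.78) highest, and the liver X receptor Nr1h3 held most counts (12686 and 12540, 0.07). The other 3 past the limit (chosen after seeing their values) were the iron exporter Slc40a1 (-1.40) and the heme oxygenase Hmox1 (-1.27), with which Kupffer cells recycle iron from red cells, and the retinoid X receptor Rxra (-1.14). Bulk counts do not show which cells made the RNA of any gene in this list. Its genes Cdh5 and Mrc1 also stand in the list of sinusoidal endothelial markers. Of 24 pan-macrophage genes with 3 exons or more, 5 were lower and 1 higher (median -0.43). In that list Maf (-2.15) and the Fc receptor Fcgr3 (-1.85) were lowest, the clearance receptor Mertk (1.05) and Cd300a (0.45) highest, and C1qa had 19697 and 12241 counts (-0.60).

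The monocyte and lipid-associated lists gave medians between those of the resident and the general class. Of 13 monocyte and recruited macrophage genes, 4 were lower and 1 higher (median -0.52), from Chil3 (-1.70) and S100a6 (-1.40) to Ms4a4c (0.00) and Nr4a1 (2.61), which is also an immediate early gene. The monocyte surface antigen gene Ly6c2, named after its value was seen, stood at -1.07. Fn1, which hepatocytes also make, held most of its counts (-1.14). Of 14 lipid-associated macrophage genes, the company in which Trem2 is usually found, 2 were lower and 2 higher (median -0.46). Anxa5 (-1.11) and Spp1 (-1.02) were lowest, Lpl (1.02) and Atp6v0d2 (2.09) highest, and Apoe, mainly from hepatocytes, had a log2 ratio of 0.15. Around TREM2 and its adaptor TYROBP, 2 of 10 genes were lower and 0 higher (median -0.21), Vav1 (-1.45) and Clu (-1.15), with Treml4 highest at 0.26. Tyrobp itself, named after its value was seen, had 1751 (WT) and 1803 (knockout) counts (0.13). Of 12 genes of CSF1 receptor signal, 1 was lower and 2 higher (median -0.58), from Pik3cd (-1.02) and Irf8 (-0.96) to Fli1 (0.17) and Klf4 (1.01), with Grb2 at -0.63. The other higher gene, named after its value was seen, was Cebpb (1.24), which has 1 exon. Scavenging and phagocytosis receptors, listed with secreted ligands such as Gas6 and C3, had 4 lower and 3 higher of 16 (median -0.35). They ran from C5ar1 (-2.87) and Gas6 (-1.17) to Colec12 (1.12) and Cd36 (1.60). C3 (-0.45) held most of the summed level, 9583 of 11031 CPM (WT) and 6999 of 8073 (knockout). Niche genes that instruct Kupffer cells had 2 lower and 4 higher of 19 (median 0.07, and -0.01 over the 17 with at least 3 exons), from Jag1 (-2.51) and Smad4 (-1.18) to Tgfbr2 (1.30) and Bmp2 (2.23), with Tgfb1 at -0.66. The other higher niche genes, named after their values were seen, were Bmp10 (7 and 190 counts) and Gdf2 (listed at 0 in WT, 2074 in the knockout library), each with 2 exons.

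**Figure D4:**
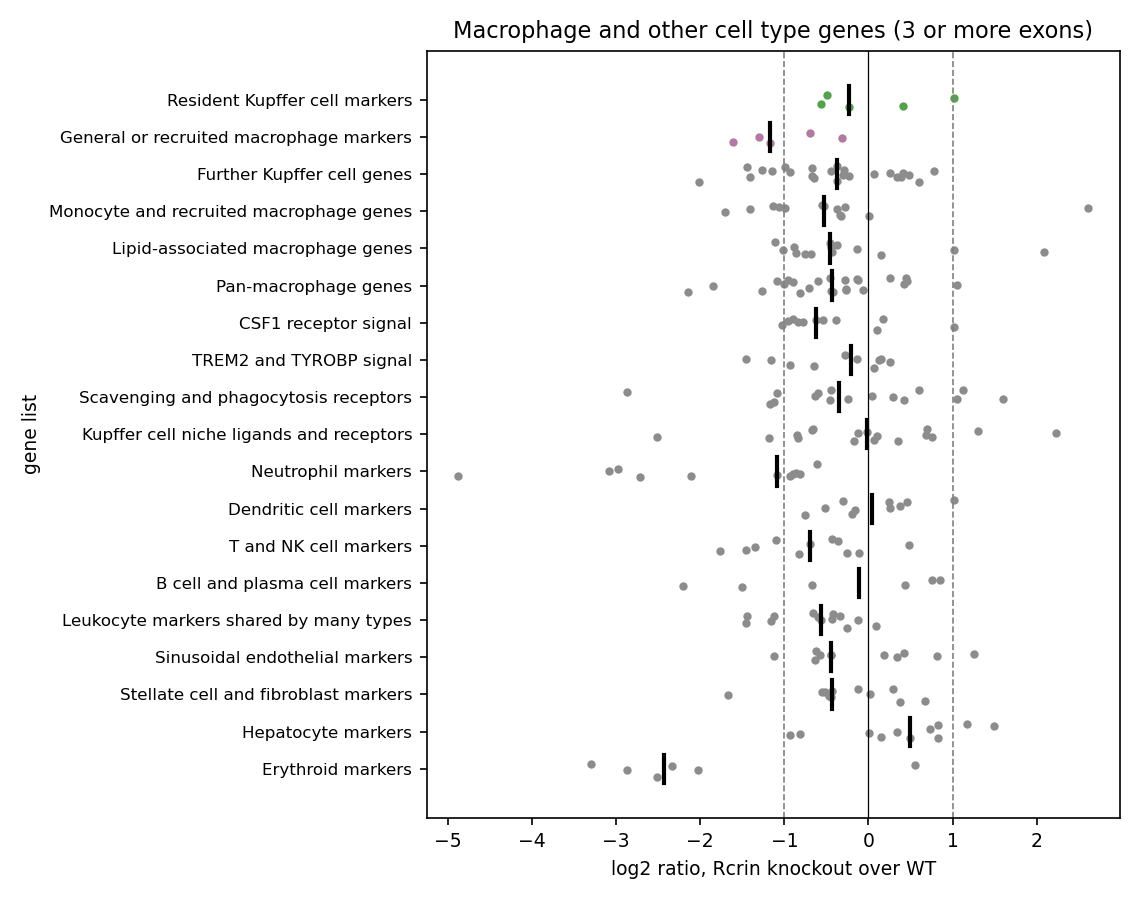
Log2 ratio of knockout over WT for each gene of the marker classes and of 17 other lists (points, genes that were compared, have 3 exons or more and were counted in both libraries), with a black bar at the median of each list and dashed lines at the 2-fold limits. The median of the general markers, -1.17, lies left of that of each other list drawn except the erythroid markers at -2.42. That order turns for the neutrophil and the erythroid markers under other settings given in the text. With only genes of at least 500 counts in the mean (not drawn), the general median was -0.70. The CSF1 receptor signal (-0.84), neutrophil (-0.93), B cell and plasma cell (-1.43) and erythroid (-2.51) lists then lay left of it.

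Several of the general markers are also used by other blood cells, and genes of several of those cells stood lower too, though not those of dendritic cells as a list. Leukocyte genes shared by many types had 4 lower and 0 higher of 14 (median -0.50, 13 of 14 below 0), from Vav1 and Cd53 (-1.44) to Lsp1 (-0.12) and the pan-leukocyte phosphatase Ptprc (322 and 324 counts, 0.09), with Laptm5 at -1.15. Neutrophil markers had 6 lower and 0 higher of 11, with summed levels of 592 CPM (WT) and 48.4 (knockout) (median -1.09), from Lcn2 (-4.87), which hepatocytes also make and which held most of the counts, and Mpo (-3.08) to Retnlg (-0.81) and Csf3r (-0.61). Their median lay close above that of the 5 general markers (-1.17), and below it with the GC trend removed (-1.18 against -1.12) and with only genes of at least 4 exons (-2.11). Dendritic cell markers, which bear on Itgax, had 0 lower and 1 higher of 10 (median 0.05, summed 719 and 660 CPM over the 16 listed), from Cd74 (-0.75) and Clec10a (-0.51) to H2-Ab1 (0.46) and Ccr7 (1.02), with Bst2 at -0.19. Flt3, Xcr1, Clec9a, Cd209a, Siglech and Itgae of this list fell under the level filter and are not in its median. Bst2 (377 and 330 CPM) and Cd74 (151 and 89.6) held most of its sum. T and NK cell markers had 4 lower and 0 higher of 11 (median -0.69, 36.4 and 23.2 CPM) and B cell and plasma cell markers 2 lower and 0 higher of 6 (median -0.12, 510 and 314 CPM). Erythroid markers had 5 lower and 0 higher of 6 (median -2.42, 3087 and 784 CPM), with Epb42 listed at 0 in both libraries. The globin genes in this list have 3 exons each, and with only genes of at least 4 exons the median was -0.89, above that of the general markers, over Slc4a1 (-2.34, named after its value was seen) and Alas2, the first enzyme of heme synthesis in red cells, which stood higher (13871 and 19110 counts, 0.55). No other marker of these blood cell lists was listed at 0. Hepatocyte markers had 0 lower and 2 higher of 11 past the limit (median 0.50) and a sum of 136935 and 177824 CPM. They were mixed, with 2 of the 11 below 0, Trf (-0.93) and Fgb (-0.81), which encode transferrin and a fibrinogen chain, and with Apoa2 and Hnf4a (1.17) highest. The part of any of these cell types in the values of the 10 markers was not tested. Sinusoidal endothelial markers had 1 lower and 1 higher of 12 (median -0.34) and stellate cell and fibroblast markers 1 lower and 0 higher of 12 (median -0.44). A count of 1 in 12 is near the share over all genes compared (8.61% lower, 8.45% higher).

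The number of exons of a gene bears on how far a ratio can be trusted in these libraries. Of the genes compared with 1 exon, 44.4% differed by at least 2-fold and 30.8% were listed at 0 in 1 library. Of those with 5 to 9 exons, as Clec4f, Vsig4, Timd4, Cd5l, Cd68 and Trem2 have, 16.4% differed by at least 2-fold. Of those with 10 to 19 exons, as Marco has, 12.8% did, and of those with at least 20, as Adgre1, Csf1r and Itgax have, 11.2%. No exons of a marker other than Csf1r overlapped those of another annotated gene.

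The GC content of the markers also followed their order in part. The median over the transcripts of a gene was 45.7% for Vsig4 and 44.4% for Timd4, the 2 markers that stood higher, and it ran from 47.7% (Adgre1) to 57.5% (Trem2) among the other 8. With a smooth trend of the log2 ratio over GC content removed, all 10 kept their sign, Vsig4 came within 2-fold, and Trem2 (-1.36), Itgax (-1.19) and Cd68 (-1.12) stayed past it. The general median was then -1.12 and the resident median -0.06, a difference of 1.05.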

How the data were processed

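The deposited tables gave whole-number read counts for each Ensembl gene, not normalized, per the file headers. Trizol RNA was made into libraries with a SMARTER mRNA-Seq kit according to the labels' protocols, and the build was GRCm38 (mm10), per the submitters' processing notes. The sources used here name no aligner, counter, annotation or use of strand. Names and positions of genes were taken from the GENCODE M21 annotation of GRCm38, which held 55240 of the 55421 listed. No reference name or synonym matched Rcrin, so its level was not analysed here.

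Libraries were scaled with TMM factors (edgeR 4.0.16, R 4.3.3), and 0.5 reads were added before the log2 ratio. Genes averaging 50 counts or more were compared, with no test by any tool. Intervals of a ratio between libraries are exact conditional (Clopper-Pearson). The calculation was run on simulated Poisson counts, the error that the intervals assume. That run held no spread between mice, PCR copies or GC trend, so it checked the arithmetic only. Groups came from the genotype label. The members and lists were chosen with earlier results of these data known. From each list the text names the 2 lowest and 2 highest log2 ratios and the gene with most counts, leaving out genes with fewer than 3 exons or a 0 in either library. For lists of T, B, endothelial, stellate, erythroid and hepatocyte genes mainly summaries are given. Alternatives were DESeq2 1.42.0 size factors, total counts, TMM over genes with at least 4 exons, 5 reads added, removal of a smooth trend with GC content, a limit of 1.5-fold, intervals wholly past 2-fold, no filter or one at 500 counts, an exon minimum, and means for medians.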

Additional observations from a re-analysis of the deposited data

How the results depend on the processing

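No paired analysis was possible because each genotype has 1 library. All 10 markers kept the sign of their log2 ratio under the 5 alternatives of scaling, added reads and GC content, as did the medians of 14 of 17 other lists under 8 alternatives or fewer; the exceptions were the niche, dendritic cell and B cell lists. The count of markers at least 2-fold lower was 1 in place of 3 with only markers of at least 500 counts, which leaves out Trem2 and Itgax. The count at least 2-fold higher was 0 in place of 1 with total counts, with the GC trend removed and with an interval wholly past 2-fold, so the call of Vsig4 does not hold there. The resident median was -0.29 with total counts, -0.064 with the GC trend removed and 0.028 as a mean. With the GC trend removed from ratios of 2 markers, an alternative chosen after seeing the data, Marco to Adgre1 reversed to 0.19 and 24 of 25 resident to general ratios were higher in place of 23. With markers of at least 500 counts the general median was -0.70 and the difference 0.47. Over all genes, 2267 were lower and 2289 higher at 1.5-fold, 3556 and 3366 without a count filter, and 465 and 452 at a mean of at least 500 counts. Depth limits Trem2 and Itgax most, with 29 and 60 counts in the knockout library. Leaving out a replicate could not be done.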
